A study of Mus musculus with 48 samples.

Results

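Granins and the genes for prohormone processing were followed as a group of 10 genes: Chga, Chgb, Scg2, Scg3, Scg5, Vgf, Pcsk1, Pcsk2, Pcsk1n and Cpe. They were taken by gene symbol from a table of 24466 mouse genes, and all 10 of 10 were found. The table gives the repressive histone mark H3K27me3, which Polycomb repressive complex 2 deposits, as a ratio of chromatin immunoprecipitation sequencing (ChIP-seq) signal to input. Mature beta cells came from 8-week-old animals and were sorted as positive for an insulin reporter (INS-RFP). The sort was thus meant to leave out reporter-negative cells, and its purity is not known here. Adult hepatocytes were also from 8-week-old animals. Definitive endoderm, the embryonic layer from which liver and pancreas form and the baseline of the series, was sorted from e8.25 embryos with an antibody to the surface antigen ENDM1. Embryos came from superovulated B6C3F1 females mated with C3H, Pdx1-eGFP or Ins-RFP males, and which male gave which endoderm library is not stated in the labels. The strain of the hepatocyte donors, and whether animals were pooled, are not stated in the labels. No knockout or treatment is labelled for these libraries.

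By the labels, each cell type had 2 ChIP libraries and 2 inputs, but the table holds 1 pooled value per gene and cell type. No value therefore has a replicate error, read depth is unknown, and no test across samples could be made. Each difference described here compares single pooled profiles, and no order of levels could be set against a spread. The columns were quantile-normalized by the authors, so a ratio gives the standing of a gene among the genes of the same cell type, with a median of 0.711 and an upper quartile of 1.27 in each.

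Granins are acidic proteins stored in the dense-core granules of endocrine and nerve cells, where they help granules form and also serve as precursors of small peptides. Peptide hormones such as insulin are made as larger precursors, which prohormone convertases cleave after pairs of basic residues within the same granules, and carboxypeptidase E then trims the exposed basic residues. Beta cells use this regulated secretory pathway for insulin, whereas hepatocytes secrete plasma proteins mainly through the constitutive route.

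H3K27me3 is read here at genes, and the members differ in the sequence around their start sites. RefSeq promoters (build GRCm38.p6, 250 bases before to 50 bases after the start, 300 in all) were given for 8 members, and 4 are shown because they hold the motifs searched or belong to the gene with opposite differences in the adult cell types. In all, 3 motifs were searched on both strands. They were TGACGTCA, the cAMP response element known from granin genes, and TTCAGCACC and GGACAG, the left and right part of the element bound by the neuronal gene repressor REST. Capitals mark matches to any of these.
Scg2 (chr1:79439977-79440276, minus strand): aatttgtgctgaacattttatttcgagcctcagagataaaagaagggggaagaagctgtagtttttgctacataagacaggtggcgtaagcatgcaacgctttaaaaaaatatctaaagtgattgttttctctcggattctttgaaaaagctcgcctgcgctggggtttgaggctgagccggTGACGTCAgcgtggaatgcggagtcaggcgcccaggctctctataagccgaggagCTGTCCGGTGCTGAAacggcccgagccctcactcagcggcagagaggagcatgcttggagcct
Chgb (chr2:132781392-132781691, plus strand): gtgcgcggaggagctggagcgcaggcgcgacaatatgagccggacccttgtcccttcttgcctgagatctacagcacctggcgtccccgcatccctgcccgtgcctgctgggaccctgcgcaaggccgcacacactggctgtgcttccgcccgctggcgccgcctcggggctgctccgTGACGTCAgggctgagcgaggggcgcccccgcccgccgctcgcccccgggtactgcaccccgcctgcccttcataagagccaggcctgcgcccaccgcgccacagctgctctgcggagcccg
Pcsk1 (chr13:75089607-75089906, plus strand): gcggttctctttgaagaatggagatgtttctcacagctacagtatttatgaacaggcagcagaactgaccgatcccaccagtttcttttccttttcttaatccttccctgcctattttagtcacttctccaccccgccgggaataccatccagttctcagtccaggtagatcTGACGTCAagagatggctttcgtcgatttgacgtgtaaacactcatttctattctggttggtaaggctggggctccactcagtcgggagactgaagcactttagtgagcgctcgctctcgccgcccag
Chga (chr12:102554691-102554990, plus strand): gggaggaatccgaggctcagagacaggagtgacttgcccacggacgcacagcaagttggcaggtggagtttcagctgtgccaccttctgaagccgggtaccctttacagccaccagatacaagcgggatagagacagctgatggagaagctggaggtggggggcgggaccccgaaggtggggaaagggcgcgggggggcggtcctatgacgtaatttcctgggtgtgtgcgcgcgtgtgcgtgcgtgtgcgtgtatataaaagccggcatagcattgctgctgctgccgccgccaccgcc

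TGACGTCA was present in 3 of the 8 promoters, against 1.79% of all 32851 promoters of the same length. Its first base lay at position -68 from the start in Scg2, -72 in Chgb and -78 in Pcsk1. Scg2 alone among the 8 held TTCAGCACC, found in 0.371% of all promoters, and GGACAG, found in 22.2%. Both lay on the strand opposite to the gene, directly next to each other from position -13. The 5 letters TGACG, which lie inside TGACGTCA and were added later, occurred in 7 of the 8, against 20.8% of all promoters, and in Chga they began at -44. The 8 promoters had between 9 and 36 CG pairs with a median of 17, and all promoters had a median of 7. TGACG and TGACGTCA each hold a CG pair, so all promoters are not a background matched for CG pairs. These matches describe the letters only, on a later build than the mm9 of the files, and neither labels nor headers say which region was measured for a gene.

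The level of the mark separated beta cells from both other cell types at the whole group. All 10 members had a beta cell ratio below the median of all genes, and all 10 lay above that median in hepatocytes and in endoderm. Their median ratios were 0.371 in beta cells, 1.29 in hepatocytes and 1.13 in endoderm. In rank, the median member stood at the 14.8th percentile of genes in beta cells, at the 75.8th in hepatocytes and at the 70.3rd in endoderm. From these positions on either side of the median it follows that the beta cell ratio was the lowest of the 3 at 10 of 10 members. This order holds for 32.4% of all genes. In beta cells the highest member ratio was 2.20 times the lowest, against 6.17 times in hepatocytes and 9.02 times in endoderm. Such a range depends on the level, as the distribution shared by the columns reaches 1428 at its top. By percentile, members ran from 7.67 to 39.2 in beta cells, 58.9 to 98.1 in hepatocytes and 54.3 to 98.9 in endoderm. Without Vgf and Pcsk1n the highest was 1.78, 3.00 and 2.19 times the lowest in beta cells, hepatocytes and endoderm.

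**Figure D1:**
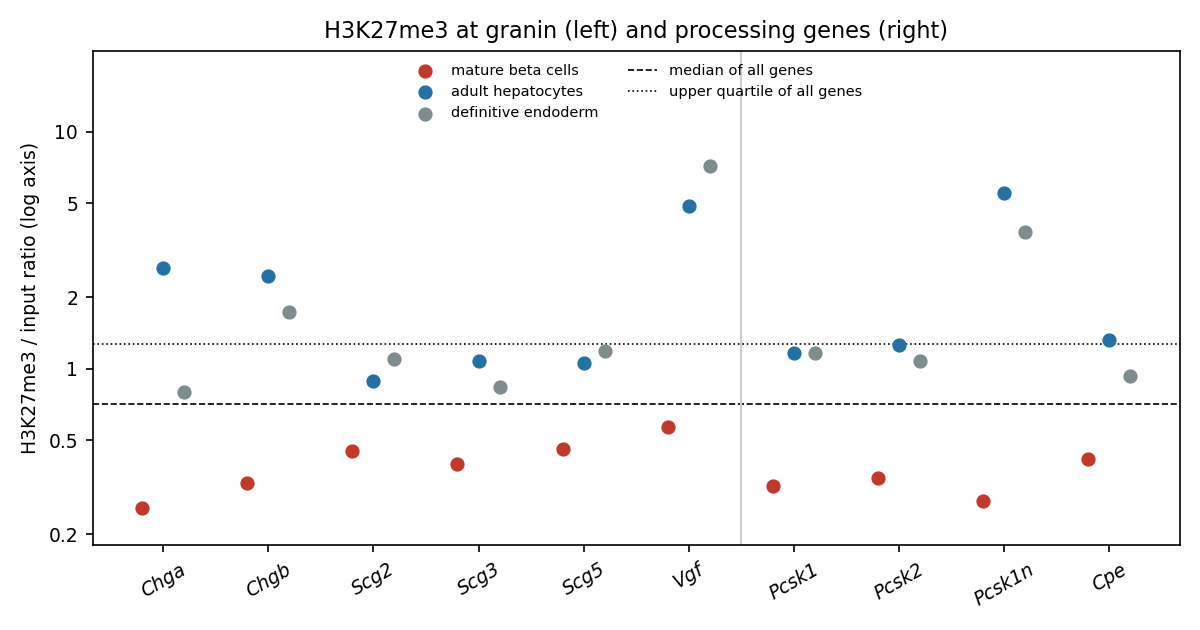
Ratio of H3K27me3 to input (log axis) at each gene in mature beta cells, adult hepatocytes and definitive endoderm, 1 pooled value per point. All beta cell points lie below the median of all genes, 0.711 (dashed line), and all others lie above it.

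Among the granins, Chga encodes chromogranin A, the founding member of the family and a precursor of several peptides. Its ratios were 0.257 in beta cells, 2.67 in hepatocytes and 0.796 in endoderm, at percentiles 7.67, 93.3 and 54.3. It was the lowest member in beta cells and also the lowest in endoderm, while in hepatocytes it ranked behind Pcsk1n and Vgf. Chgb, chromogranin B, had 0.329 in beta cells, 2.47 in hepatocytes and 1.74 in endoderm. Hepatocytes were thus the highest cell type at both chromogranins.

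Vgf, a granin-like precursor first found as a gene induced by nerve growth factor, had ratios of 0.566 in beta cells, 4.88 in hepatocytes and 7.18 in endoderm. It was the highest member in beta cells, at the 39.2nd percentile, and the highest in endoderm, at the 98.9th. The secretogranins had moderate levels outside beta cells. Scg2, the precursor of secretoneurin, had 0.449 in beta cells, 0.892 in hepatocytes and 1.10 in endoderm. Scg3, which binds chromogranin A and granule membranes, had 0.396 in beta cells, 1.08 in hepatocytes and 0.841 in endoderm. Neither reached the upper quartile in any cell type. Scg5 encodes 7B2, a chaperone that the convertase of Pcsk2 needs to become active, and had 0.459 in beta cells, 1.06 in hepatocytes and 1.19 in endoderm.

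The convertase genes had similar levels. Pcsk1, whose enzyme makes the early cuts in proinsulin, had ratios of 0.319 in beta cells, 1.17 in hepatocytes and 1.16 in endoderm. Pcsk2, the convertase that also processes proglucagon in alpha cells, had 0.347 in beta cells, 1.26 in hepatocytes and 1.08 in endoderm. On the log2 scale used below, the 3 values of these genes lay 0.18 apart as a Euclidean distance, the shortest between any pair of members, and of the 24465 other genes 5 lay nearer to Pcsk1 and 9 nearer to Pcsk2. Cpe, carboxypeptidase E, had 0.415 in beta cells, 1.32 in hepatocytes and 0.937 in endoderm. Pcsk1n encodes proSAAS, an inhibitor of the Pcsk1 enzyme, and had 0.278 in beta cells, 5.50 in hepatocytes and 3.79 in endoderm. It was the highest member in hepatocytes, at the 98.1st percentile, and the second lowest in beta cells, at the 8.59th.

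The first comparison asked how the mark in mature beta cells stands to that in the endoderm baseline. Ratios were compared as log2(ratio + 0.0711), where the constant is the median ratio divided by 10 and shrinks differences at low ratios. A gene was called lower or higher from a difference of 1 in size, which is 2-fold on this scale. Of the 10 members 9 were lower in beta cells and 0 higher, against 15.1% of all genes lower and 14.1% higher. The median difference was -1.43 over the members and -0.01 over all genes. Vgf (-3.51) and Pcsk1n (-3.47) differed most, followed by Chgb (-2.18). Pcsk1 (-1.66), Pcsk2 (-1.46), Chga (-1.40), Scg5 (-1.25), Scg2 (-1.17) and Cpe (-1.05) were nearer to the threshold, and Scg3 (-0.97) was the 1 member just under it. This order depends on the scale. In percentile points Pcsk1n (-87.7), Chgb (-73.9) and Pcsk1 (-60.7) differed by more than Vgf (-59.7). With the constant 10 times larger, 3 of 10 members were lower, against 6.85% of all genes.

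Quantile normalization cannot show a change in the total amount of the mark. Each column has 1 value that recurs at many genes, 0.932 in beta cells, 0.918 in hepatocytes and 1.27 in endoderm. Dividing each column by it moves the median beta cell minus endoderm difference of all genes to 0.38. What the recurring value stands for is not known, and in endoderm it equals the upper quartile. The division thus gives an alternative scale and no correction for the total amount. On that scale 6 of 10 members were lower and 0 higher, against 9.62% of all genes lower and 23.4% higher, and higher genes made up 70.9% of all calls in place of 48.3%. All 10 differences were still negative, and Scg5 (-0.85), Scg2 (-0.77) and Cpe (-0.65) were then under the threshold, like Scg3 (-0.57).

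**Figure D2:**
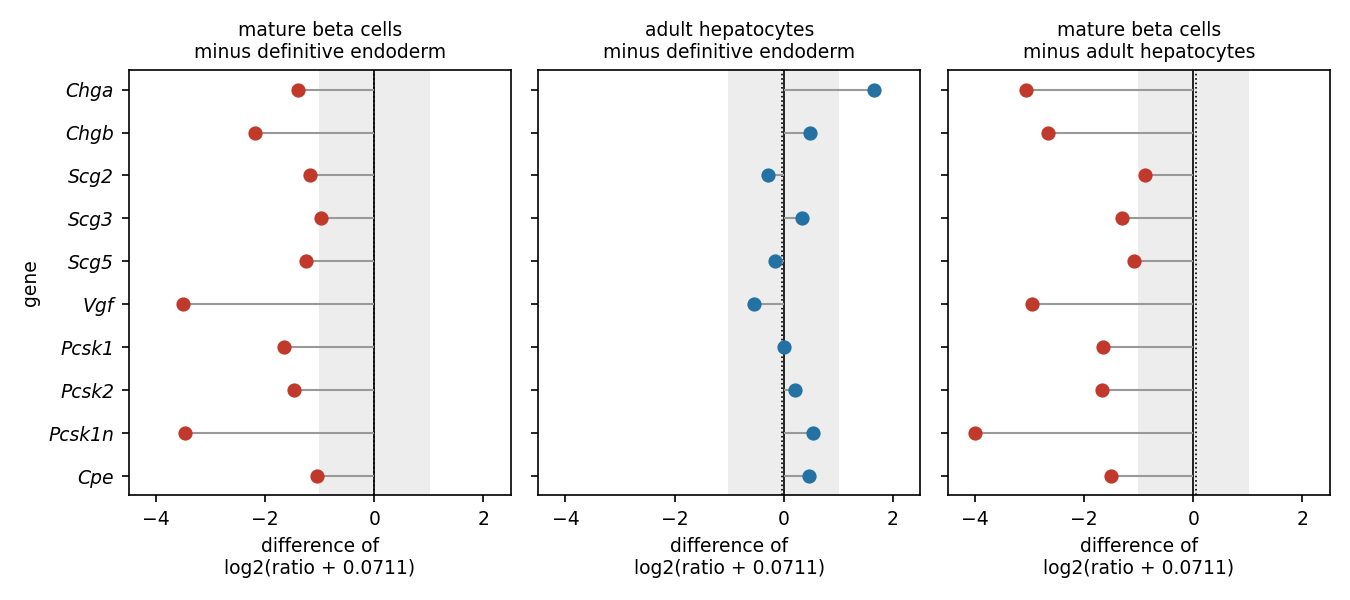
Differences of log2(ratio + 0.0711) at each gene for mature beta cells minus definitive endoderm, adult hepatocytes minus definitive endoderm and mature beta cells minus adult hepatocytes. Grey marks differences under 1 in size and the dotted line the median of all genes. In both comparisons of beta cells all 10 points lie left of 0, and 9 lie left of -1.

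The second comparison set hepatocytes against the same endoderm values. Of the 10 members 1 was higher in hepatocytes and 0 lower, against 12.8% of all genes higher and 13.3% lower, so the share of members called is near or below that of all genes. The median difference was 0.28 over the members and -0.03 over all genes. Chga was the 1 called member, with a difference of 1.66 from ratios of 2.67 in hepatocytes and 0.796 in endoderm. The remaining 9 differences ran from -0.55 at Vgf to 0.53 at Pcsk1n, and that of Pcsk1 was 0.002. By sign alone, 7 members had the higher ratio in hepatocytes and 3 (Scg2, Scg5 and Vgf) the lower. After division by the recurring values, the median of all genes moved to 0.38 and higher genes made up 73.4% of all calls in place of 48.9%. The differences of Scg2 (0.15) and Scg5 (0.27) were then positive, that of Vgf was -0.09, and Chga (2.10) was still the 1 member called.

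The third comparison set mature beta cells against hepatocytes, and it shares its beta cell and hepatocyte values with the other 2. All 10 members had the lower ratio in beta cells. By the threshold 9 were lower and 0 higher, against 13.1% of all genes lower and 12.5% higher. The median difference was -1.67 over the members and 0.04 over all genes. Pcsk1n (-4.00), Chga (-3.06), Vgf (-2.96) and Chgb (-2.67) differed by more than the other members, of which Pcsk2 (-1.68), Pcsk1 (-1.66), Cpe (-1.52), Scg3 (-1.30) and Scg5 (-1.09) passed the threshold and Scg2 (-0.89) did not. In percentile points Vgf (-58.3) differed by less than Pcsk2 (-62.2) and Pcsk1 (-60.8). At Chga the beta cell ratio was 0.0963 times that of hepatocytes, and at Pcsk1n it was 0.0505 times. With the constant 10 times larger, 4 of 10 members were lower, against 6.21% of all genes.

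**Figure D3:**
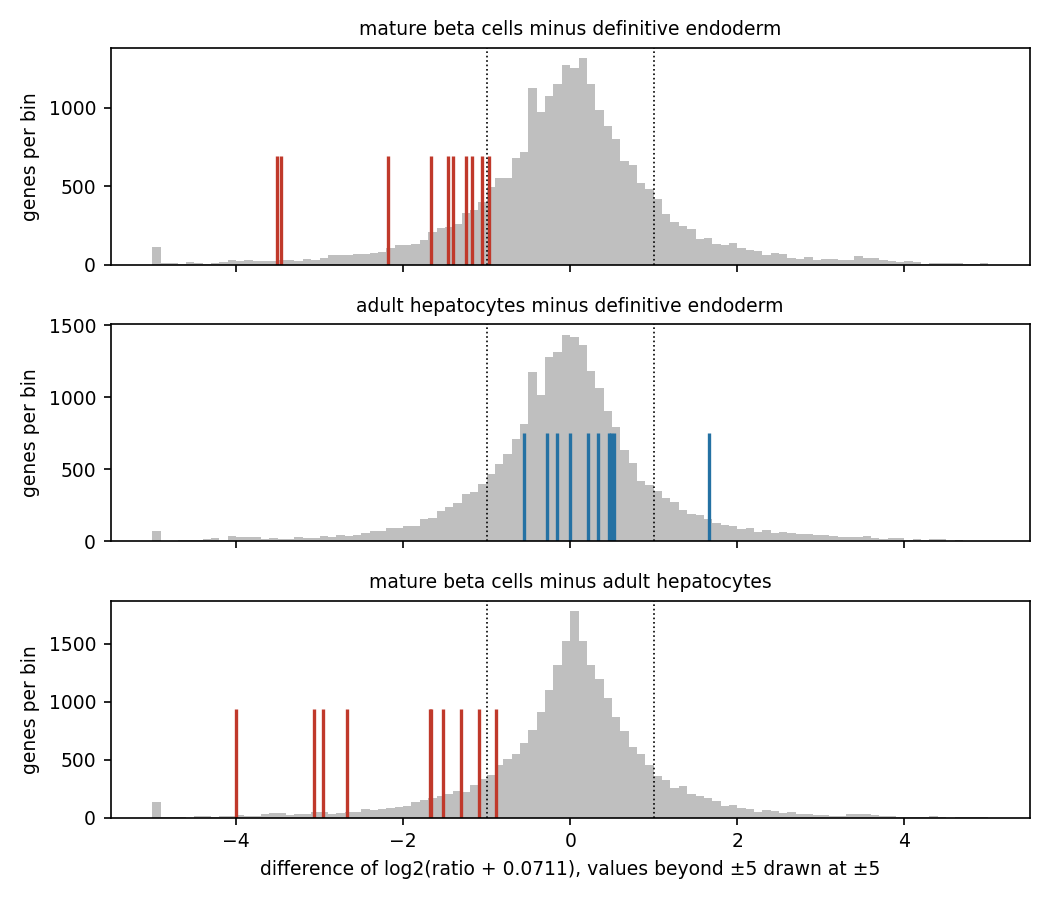
Histograms of the differences of log2(ratio + 0.0711) over all 24466 genes in the 3 comparisons, with the 10 members as coloured lines and the thresholds of 1 in either direction dotted. The members lie in the lower tail in both comparisons of beta cells, and around the centre in hepatocytes minus endoderm, with Chga as the 1 exception on the right.

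Pcsk1n lies on the X chromosome (its promoter at chrX:7919572-7919871, plus strand, in GRCm38.p6), where many genes had lower ratios in beta cells. In a hand-written list of 99 other X-linked genes, 80 had a lower beta cell than endoderm ratio by the threshold and 0 a higher one. Their median difference was -1.50, and of all genes 15.1% were lower and 14.1% higher. Against hepatocytes 86 were lower and 0 higher, with a median of -1.57, beside 13.1% and 12.5% of all genes. The Pcsk1n difference lay at -1.97 relative to the first median and at -2.42 relative to the second. Of the 99 genes, 1 had as low a difference against endoderm and 0 against hepatocytes. The part of the X chromosome in the Pcsk1n difference was not tested. Without Pcsk1n, 8 of 9 members were lower in beta cells in both comparisons.

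The mark at the members was then set beside that of the nearest protein-coding gene on either side. Neighbours were taken in RefSeq order among the genes with a ratio whose symbols matched, so an unmatched nearer gene would be passed over. Against endoderm, 4 of the 20 flanking genes were lower in beta cells and 2 higher, with a median difference of -0.14. The shares over all genes were 15.1% and 14.1%, so these counts are near them. Against hepatocytes 2 were lower and 0 higher, with a median of -0.12, beside 13.1% and 12.5% of all genes. Every member had a lower beta cell minus hepatocyte difference than both of its flanking genes. In beta cells minus endoderm this held for 9 of 10, the exception being Cpe (-1.05), whose neighbour Msmo1, a sterol synthesis enzyme, had -1.43. The neighbours of Pcsk1n were Timm17b, a mitochondrial import subunit, and Eras, a Ras-like gene of embryonic stem cells. Timm17b is also among the 99 X-linked genes. Both neighbours had low beta cell ratios of 0.190 and 0.318, hepatocyte ratios of 2.15 and 3.58, and endoderm ratios of 1.67 and 2.55, so their order of cell types was that of Pcsk1n. Around Chga the values were of another kind. Golga5 had 0.674 in beta cells and 0.379 in hepatocytes, and Itpk1 had 0.559 in beta cells and 0.504 in hepatocytes.

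**Figure D4:**
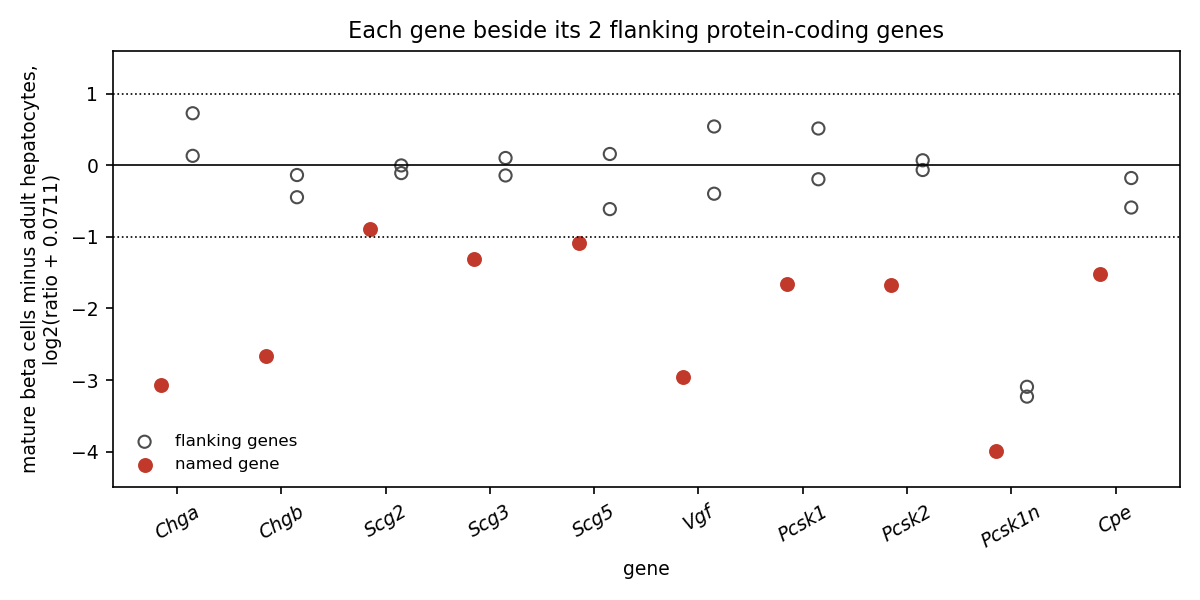
Mature beta cells minus adult hepatocytes, as differences of log2(ratio + 0.0711), at each member (filled) and at its 2 flanking protein-coding genes (open). At 9 members the flanking genes lie between -1 and 1, and at Pcsk1n they lie below -3.

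Other genes of the secretory granule and of peptide processing were described from 5 lists. Of 16 genes for granule membranes and granule formation, 6 were lower in beta cells and 0 higher relative to endoderm, with a median difference of -0.76. Against hepatocytes 7 were lower and 0 higher (median -0.73). The shares over all genes were 15.1% lower and 14.1% higher relative to endoderm, and 13.1% and 12.5% relative to hepatocytes. Ptprn, the islet autoantigen IA-2 of the granule membrane, had ratios of 0.372 in beta cells, 1.72 in hepatocytes and 2.35 in endoderm. Hid1, which acts in granule formation, had 0.466 in beta cells, 2.23 in hepatocytes and 2.45 in endoderm. In both, the beta cell ratio was the lowest of the 3, as at the members. The calcium sensor Syt7 had 0.372, 2.10 and 1.96 in beta cells, hepatocytes and endoderm. Rab3a, a small GTPase of secretory vesicles, was low in both adult cell types, with 0.157 in beta cells and 0.154 in hepatocytes, and had 0.656 in endoderm.

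Of 12 transcription regulators of neuroendocrine genes, 6 were lower in beta cells and 1 higher relative to endoderm (median -1.35). Relative to hepatocytes 7 were lower and 1 higher (median -1.43). Of all genes 15.1% were lower and 14.1% higher in the first comparison, and 13.1% and 12.5% in the second. Pax6, known to regulate islet hormone and convertase genes, had ratios of 0.265 in beta cells, 4.74 in hepatocytes and 5.34 in endoderm. Nkx2-2, an islet homeobox factor, had 0.229, 5.72 and 6.18, and Foxa2, a forkhead factor, had 0.183, 0.676 and 1.98 in the same order. Insm1, a zinc finger factor of endocrine cells, had 0.516 in beta cells, 9.11 in hepatocytes and 105 in endoderm, the last from the far upper tail. In endoderm the ratios of Pax6 and Nkx2-2 were thus between those of Pcsk1n and Vgf.

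The other enzymes of the pathway had fewer genes called. The other 7 proprotein convertases had 2 genes lower and 0 higher in beta cells relative to endoderm, and 0 lower and 2 higher relative to hepatocytes. Furin, the convertase of the constitutive pathway, had ratios of 0.460 in beta cells, 0.192 in hepatocytes and 0.425 in endoderm. Pcsk4, a convertase of germ cells, had 0.272, 0.152 and 2.31 in beta cells, hepatocytes and endoderm. Of 11 other carboxypeptidases and peptide-modifying enzymes, 2 were lower and 0 higher in beta cells in each comparison. All genes had 15.1% lower and 14.1% higher relative to endoderm, and 13.1% and 12.5% relative to hepatocytes. The 2 lower genes of 11 are thus near the share of all genes. Pam, the enzyme that amidates peptides, had 0.375 in beta cells, 0.860 in hepatocytes and 0.518 in endoderm, and the endothelin-converting enzyme gene Ece2 had 0.435, 1.41 and 2.21.

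The peptide precursors listed, which include peptides of cells other than beta cells, had no common direction. Of 27 peptide precursors, 4 were lower and 7 higher in beta cells relative to endoderm (median 0.36). All genes had 15.1% lower and 14.1% higher, so the 4 lower genes are near that share. Against hepatocytes 6 were lower and 4 higher (median -0.09), beside 13.1% and 12.5% of all genes. Ins2, an insulin gene, had ratios of 0.593 in beta cells, 1.04 in hepatocytes and 0.381 in endoderm, and Ins1 had 1.56, 1.38 and 0.0471. Sst, somatostatin of delta cells, had 4.47 in beta cells, 3.59 in hepatocytes and 1.53 in endoderm, and Gcg, glucagon of alpha cells, had 1.89, 1.52 and 1.05. Ucn3, a peptide of mature beta cells, stood like the members, with 0.246 in beta cells, 1.12 in hepatocytes and 1.33 in endoderm. Iapp, another beta cell marker, was also lowest in beta cells, with 0.103, against 1.36 in hepatocytes and 0.369 in endoderm. Unlike the members, it was below the median of all genes in endoderm.

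**Figure D5:**
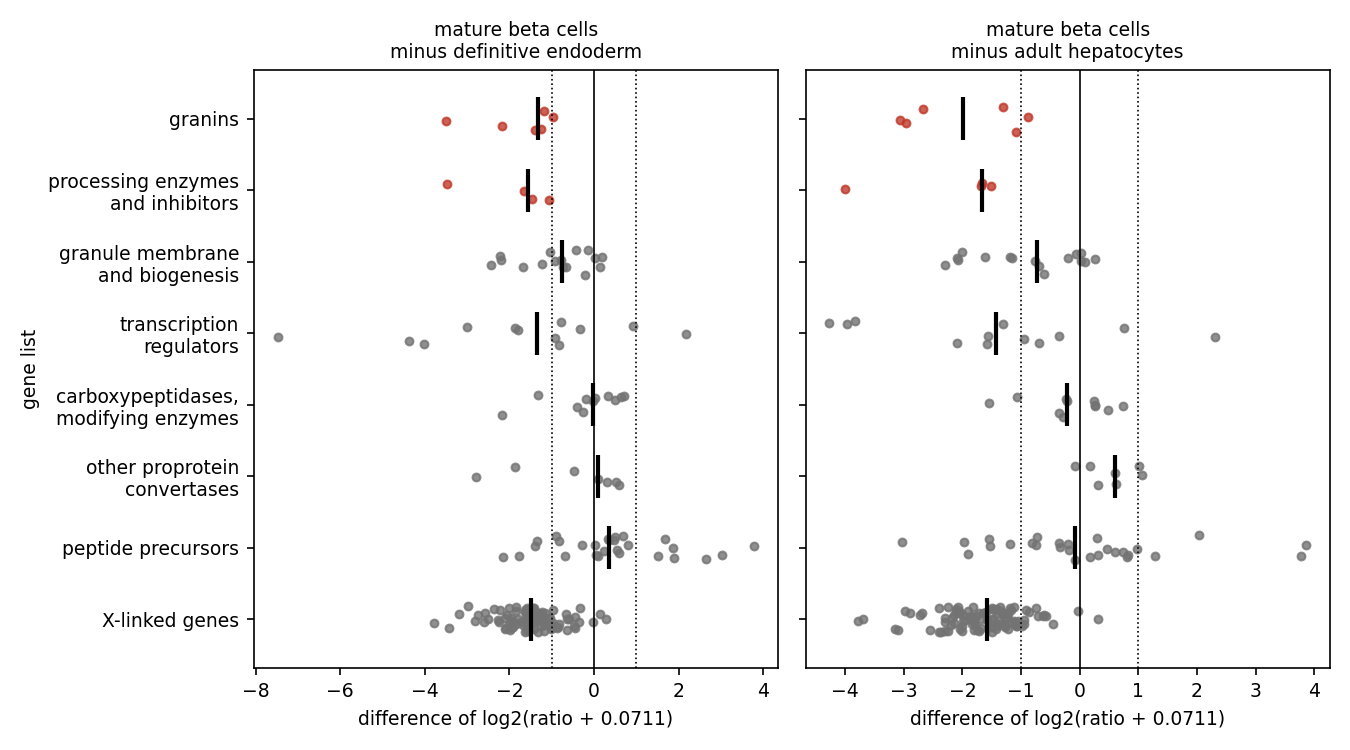
Differences of log2(ratio + 0.0711) for mature beta cells minus definitive endoderm and mature beta cells minus adult hepatocytes, 1 point per gene, with each list's median as a bar and the members in red. The medians of both member groups lie below -1 in both panels, and that of the 27 peptide precursors lies at 0.36 and -0.09.

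Beyond these lists, the genes whose 3 values came nearest to the median profile of the members, by Euclidean distance over the 3 log2 values, were Vmn1r217, Igfbp7, Riiad1, Rab3b and Crnn, at distances of 0.10 to 0.13. Vmn1r217 is a vomeronasal receptor gene and Rab3b encodes a vesicle GTPase. Vmn1r217 had ratios of 0.366 in beta cells, 1.22 in hepatocytes and 1.09 in endoderm. A likeness over 3 values is shared by many genes, and Chgb had 731 genes nearer to it than its nearest member, Chga.

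The labelled cell types were checked on the mark at their markers. Of 8 beta cell markers, 5 were lower in beta cells than in hepatocytes by the threshold, against 13.1% of all genes. Neither insulin gene passed it, and Ins1 was at the 82.1st percentile in beta cells. By percentile, 5 of the 8 were below the 25th in beta cells and 1 was at or above the 75th. In hepatocytes 1 was below the 25th and 5 were at or above the 75th. Slc2a2 had the higher ratio in beta cells, 0.457 against 0.240 in hepatocytes, as had Ins1, 1.56 against 1.38. Pdx1, the pancreatic master regulator, had ratios of 0.217 in beta cells, 7.18 in hepatocytes and 6.39 in endoderm. Of 8 hepatocyte markers, 1 was below the 25th percentile in beta cells and 7 in hepatocytes. Of 7 endoderm markers, 5 were at or above the 75th percentile in endoderm, with Foxa1 at a ratio of 72.6, so the mark at these markers did not set endoderm apart by low values. In the beta cell column 7 of 8 markers of other islet cells and 5 of 8 acinar and duct markers were at or above the 75th percentile, and 3 of 7 blood and endothelial markers. The summed ratios of these 3 lists were 23.7, 20.5 and 9.31 in beta cells, 21.6, 20.8 and 7.90 in hepatocytes, and 29.8, 148 and 6.06 in endoderm. Ptf1a, an acinar factor, alone had 139 in endoderm, and the median of the acinar and duct list was 2.19 in beta cells, 1.22 in hepatocytes and 1.28 in endoderm. The part of other cell types in the members' values was not tested.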

How the data were processed

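H3K27me3 ChIP-seq of mature beta cells, adult hepatocytes and definitive endoderm (12 libraries) was used, and 36 libraries of H3K9me3 and its inputs were not used here. The deposited values are ratios of H3K27me3 to input, quantile-normalized by the authors per the file name and headers, with 3 columns and 24466 genes. Bowtie2 2.1.0, bedtools and build mm9 appear in the submitters' processing notes. How replicates were combined, any added constant and the depth are not stated in labels or headers. That the scale is linear was read from the values, all above 0.

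Differences of log2(ratio + 0.0711) were called at 1 or more, in Python 3.11.15 with pandas 2.3.3 and numpy 2.4.6. The code was run on a copy of the endoderm column with planted changes and no added noise, which checks the arithmetic only. With single pooled values the design's description without a test was used. Members were all named; of each list the 4 largest beta cell minus endoderm and 2 largest beta cell minus hepatocyte differences could be named, besides Ins1, Ins2, Gcg and Sst. Not every list gene is reported here by name. Flanking genes are named as neighbours and markers from their lists. The members and lists were chosen with earlier results of these data known. Flanking genes, TGACG and the leaving out of Pcsk1n were added after seeing the data. Symbols matched RefSeq (GRCm38.p6) directly for 23415 genes, which gave gene order, and promoters.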

Additional observations from a re-analysis of the deposited data

Results flagged for a closer look

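Chga was called in opposite directions in the adult cell types. Its difference of log2(ratio + 0.0711) from definitive endoderm was -1.40 in mature beta cells and 1.66 in hepatocytes, from ratios of 0.257 in beta cells, 2.67 in hepatocytes and 0.796 in endoderm. With 1 pooled value per cell type, the difference between these effects was not tested. The beta cell value was -0.64 with the constant 10 times larger, which ends that call, as does a threshold of 1.5, and it was -1.01 after division by the recurring value.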

How the results depend on the processing

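With the constant 10 times larger, 3 members were lower in beta cells relative to endoderm (median difference -0.73) and 4 relative to hepatocytes (median -0.88), in place of 9 and 9, against 6.85% and 6.21% of all genes; a larger constant shrinks all differences by construction. With a threshold of 1.5, 4 members were lower in beta cells relative to endoderm, against 8.62% of all genes, and the median of -1.43 no longer passed. With a threshold of 0.5, 1 member was lower and 2 higher in hepatocytes than in endoderm, in place of 0 and 1, against 26.2% of all genes lower and 24.1% higher. The other member counts stayed within 1.5 times of their value and the other medians on their side of the threshold. This held under a smaller constant, genes above the median level, rank percentiles, division by the recurring value and without Pcsk1n. The level filter used the mean over the 3 cell types, which members pass through hepatocytes and endoderm, so it lends no support here. It left out Scg3, and 9 of 9 members were lower relative to endoderm, against 17.8% of the genes kept. After division by the recurring value 6 of 10 were lower relative to endoderm, at the limit of 1.5 times, with a median of -1.04. The median for hepatocytes minus endoderm was 0.71 after that division, in place of 0.28. No called member difference changed sign in any of the 8 alternatives (0 reversals). Most of them keep the order of 2 ratios, so a sign could not change there by construction. Division by the recurring value can change that order, and the called differences kept their sign under it. No paired analysis was possible because the table holds 1 pooled value per cell type, and leaving out a replicate could not be run for the same reason. Depth is unknown, so the counting error of single genes cannot be given.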
